A study of Mus musculus with 8 samples.

Results

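The embryonic globin chains of the mouse are Hbb-y (the epsilon-y chain) and Hbb-bh1 (the beta-h1 chain), which are beta-like, and Hba-x (the zeta chain), which is alpha-like. They were taken by symbol and make up 3 of the 24454 gene rows of a raw read count table. The table covers 8 pools of yolk sac cells sorted at embryonic day 11.5 by VE-Cadherin, an adhesion protein of endothelial junctions, and by GFP. Every pool came from the strain labelled miR144-451+/GFP on C57BL/6, so all populations carried the same GFP allele at the miR144/451 locus, which is active in red cell precursors. The double positive population (VE-Cadherin+ GFP+) had 2 pools of 24 cells, the population labelled erythroid (VE-Cadherin- GFP+) had 3 pools of 25 cells, and the population labelled endothelial (VE-Cadherin+ GFP-) had 3 pools of 25 cells. The labels do not tie the pools of a population to separate embryos, and a p-value then reflects only how far these pools spread, possibly for technical reasons.

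Haemoglobin carries oxygen as a tetramer that pairs alpha-like with beta-like chains, each around a heme. In the mouse the first wave of red cells arises in the yolk sac and uses the embryonic chains, and these primitive cells also come to make adult chains. The alpha-like and beta-like genes lie in clusters on different chromosomes, so a balanced supply of both chain types depends on separate loci.

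In GENCODE vM21 (GRCm38, the assembly also called mm10) Hbb-y lies at chr7:103851749-103853216 on the minus strand, Hbb-bh1 at chr7:103841637-103843164 on the minus strand and Hba-x at chr11:32276400-32278116 on the plus strand. All are protein coding, and no other haemoglobin gene examined overlaps any of them. Overlap with other kinds of genes was not examined. Counting reads to such paralogs depends on how far their transcripts differ, so the first 60 coding bases are shown, all within the first coding exon. Capitals mark the bases at which Hbb-y and Hbb-bh1 differ from each other, and at which Hba-x differs from the adult alpha chain Hba-a1.
Hbb-y: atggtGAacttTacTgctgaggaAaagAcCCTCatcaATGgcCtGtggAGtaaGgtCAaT
Hbb-bh1: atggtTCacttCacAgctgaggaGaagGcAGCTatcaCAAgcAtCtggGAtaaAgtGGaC
Hba-x: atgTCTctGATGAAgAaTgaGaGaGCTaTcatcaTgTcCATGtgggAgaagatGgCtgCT
Hba-a1: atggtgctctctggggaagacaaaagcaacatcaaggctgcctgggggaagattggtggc
The Hbb-y and Hbb-bh1 stretches differed at 21 of the 60 positions, and over the coding sequence with its stop codon they were identical at 76.4% of 444 positions. Hba-x and Hba-a1 differed at 28 of the 60 positions and were identical at 62.0% of 429. Cut into overlapping windows of 50 bases, the transcripts of Hbb-y (584 windows), Hbb-bh1 (564) and Hba-x (752) shared 0 windows with any other annotated transcript. A read of that length that matched perfectly could therefore be placed on a single gene among annotated transcripts.

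RefSeq promoter windows (GRCm38.p6) matched 2 of the 3 members, Hbb-y and Hba-x. The 250 bases before each start were searched on both strands for CACCC, the word read by KLF-type zinc finger factors, for the GATA factor words (A or T, then GATA, then A or G), for CCAAT, for TATAAA and for AGGTCA, a nuclear receptor word. The stretches around the matches are shown because the members moved together in every comparison below. Capitals mark the matched words, TGACCT being AGGTCA on the other strand.
Hbb-y, chr7:103853217-103853357, minus strand: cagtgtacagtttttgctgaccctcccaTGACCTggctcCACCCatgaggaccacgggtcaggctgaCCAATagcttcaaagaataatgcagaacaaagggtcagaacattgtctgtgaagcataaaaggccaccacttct
Hba-x, chr11:32276488-32276517, plus strand: gctcTGATAAcaggctcCACCCtgcaagcc
In Hbb-y, CACCC lay 111 to 107 bases before the start, CCAAT 83 to 79 bases before it and AGGTCA 122 to 117 bases before it on the other strand, and a GATA word lay further out at 162 to 157 bases. In Hba-x, a GATA word lay 108 to 103 bases before the start beside CACCC at 95 to 91, a second CACCC lay at 198 to 194, a second GATA word at 234 to 229 on the other strand, and TATAAA at 28 to 23. No searched words overlapped. CACCC occurred in 52.0% of all 32851 promoter windows of that length, the GATA words in 26.5%, CCAAT in 33.8%, AGGTCA in 14.0% and TATAAA in 12.4%, so each match describes the letters only. GENCODE starts its longer Hba-x transcript upstream of the RefSeq start, which is why only 30 bases are shown there. The GENCODE gene begins at chr11:32276400, so these 30 bases lie inside it and not before it. The same holds for the other Hba-x matches except the GATA word at 234 to 229 bases.

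The libraries held 3723128 to 7618444 counts. Endothelial markers (7 genes) summed to 262 and 406 CPM (normalised read count, scaled by the trimmed mean of M-values, TMM) in the double positive libraries, were at 0 for all 7 genes in the erythroid libraries and summed to 1634 to 2686 CPM in the endothelial libraries. Erythroid markers (7 genes) summed to 423 and 685 CPM in the double positive libraries, 10247 to 10521 CPM in the erythroid libraries and 8.73 to 23.8 CPM in the endothelial libraries, where Rhag, Klf1 and Gata1 were at 0. The double positive libraries stood apart by visceral endoderm markers (8 genes, such as Afp and Ttr), whose sum was 86280 and 88232 CPM there, against 10.1 to 21.9 CPM in the erythroid and 29.4 to 45.8 CPM in the endothelial libraries. Mesenchyme markers (5 genes) summed to 267 and 233 CPM in double positive replicates 7 and 8, against 0 to 5.70 CPM elsewhere. Macrophage markers (8 genes) summed to 103 and 138 CPM in the double positive libraries, were at 0 for all 8 genes in the erythroid libraries and summed to 1037 to 2357 CPM in the endothelial libraries. The part of these markers in the globin levels below was not tested.

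The 3 embryonic chains together took 8.85% and 13.96% of all counts in the double positive libraries, 54.5% to 56.5% in the erythroid libraries and 0.00223% to 0.00404% in the endothelial libraries. The populations did not overlap. In the erythroid libraries Hbb-y was the most abundant of all rows, Hba-x the second and Hbb-bh1 the fourth. In double positive replicates 7 and 8, Hbb-y ranked 3 and 2, Hba-x 4 and 4, and Hbb-bh1 7 and 5. In the endothelial libraries the ranks lay between 5781 and 10952. With 2 against 3 or 3 against 3 libraries the exact two-sided permutation test of these shares gave 0.1 for each pair of populations, which is the smallest p these group sizes allow (0.1 after Benjamini-Hochberg adjustment over 12 tests).

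Hbb-y, the epsilon-y chain, is one of the main beta-like chains of primitive red cells. It had 247516 and 405461 counts in the double positive libraries, 2412578, 1754708 and 1629400 in the erythroid libraries, and 75, 62 and 98 in the endothelial libraries. The normalised level was 47312 and 82630 CPM in the double positive libraries, 531337 to 562290 CPM in the erythroid libraries and 9.92 to 15.8 CPM in the endothelial libraries. No library of one population reached the range of another, and double positive replicate 8 was above replicate 7. The mean was 64971 ± 24973 CPM in double positive (SD, n = 2), 550115 ± 16499 CPM in erythroid (n = 3) and 11.95 ± 3.36 CPM in endothelial pools (n = 3). By edgeR's quasi-likelihood test with Benjamini-Hochberg adjustment over 12136 genes, Hbb-y was lower in double positive than in erythroid pools by a log2 difference of -3.08 ± 0.29 (SE, adjusted p = 8.4e-05). It was higher in double positive than in endothelial pools by 12.41 ± 0.37 (adjusted p = 6.3e-07), and higher in erythroid than in endothelial pools by 15.49 ± 0.40 (adjusted p = 1.7e-07, same edgeR test).

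Hbb-bh1, the beta-h1 chain, is the other embryonic beta-like chain and precedes Hbb-y as the main beta-like chain of primitive red cells. Its counts were 57273 and 89406 in the double positive libraries, 674012, 436011 and 456506 in the erythroid libraries, and 6, 9 and 15 in the endothelial libraries. Its level was 10948 and 18220 CPM in the double positive libraries, 138333 to 157089 CPM in the erythroid libraries and 0.793 to 2.42 CPM in the endothelial libraries. The populations were again fully separate, with the fewest counts of any member in the endothelial libraries. The mean was 14584 ± 5143 CPM in double positive (SD, n = 2), 148095 ± 9402 CPM in erythroid (n = 3) and 1.56 ± 0.82 CPM in endothelial pools (n = 3). The edgeR log2 difference was -3.34 ± 0.31 for double positive against erythroid (SE, adjusted p = 7.6e-05), 13.20 ± 0.42 for double positive against endothelial (adjusted p = 6.3e-07) and 16.55 ± 0.45 for erythroid against endothelial pools (adjusted p = 1.7e-07).

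Hba-x, the zeta chain, is the embryonic alpha-like partner of both. It had 105842 and 177600 counts in the double positive libraries, 1216332, 908807 and 798363 in the erythroid libraries, and 18, 54 and 39 in the endothelial libraries. In CPM these were 20232 and 36194 in the double positive libraries, 260341 to 288337 in the erythroid libraries and 2.38 to 8.80 in the endothelial libraries. Endothelial replicate 2, which had the fewest Hbb-y counts, had the most Hba-x counts of its population. The mean was 28213 ± 11287 CPM in double positive (SD, n = 2), 277388 ± 14961 CPM in erythroid (n = 3) and 5.83 ± 3.24 CPM in endothelial pools (n = 3). The edgeR log2 difference was -3.30 ± 0.43 for double positive against erythroid (SE, adjusted p = 4.3e-04), 12.26 ± 0.54 for double positive against endothelial (adjusted p = 4.0e-06) and 15.56 ± 0.59 for erythroid against endothelial pools (adjusted p = 5.8e-07).

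All 3 members were thus called lower in double positive than in erythroid pools, where 10.6% of the genes tested were called lower. All 3 were called higher in double positive than in endothelial pools, where 14.6% of genes were called higher, and higher in erythroid than in endothelial pools, where 14.4% were. Limma-voom called none of the 3 in any of these comparisons (adjusted p 0.134 to 0.999), whereas the other alternative fits called all 3 in each. Libraries that did not overlap in these directions were found for 20.0%, 32.9% and 18.7% of genes in the same order of comparisons. The comparisons share libraries and are not independent of each other. The median log2 difference over all genes tested was 0.71 for double positive against erythroid, 0.06 for double positive against endothelial and -0.36 for erythroid against endothelial pools. In pools of cells, fewer cells that make a globin and less globin RNA per cell cannot be told apart.

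**Figure D1:**
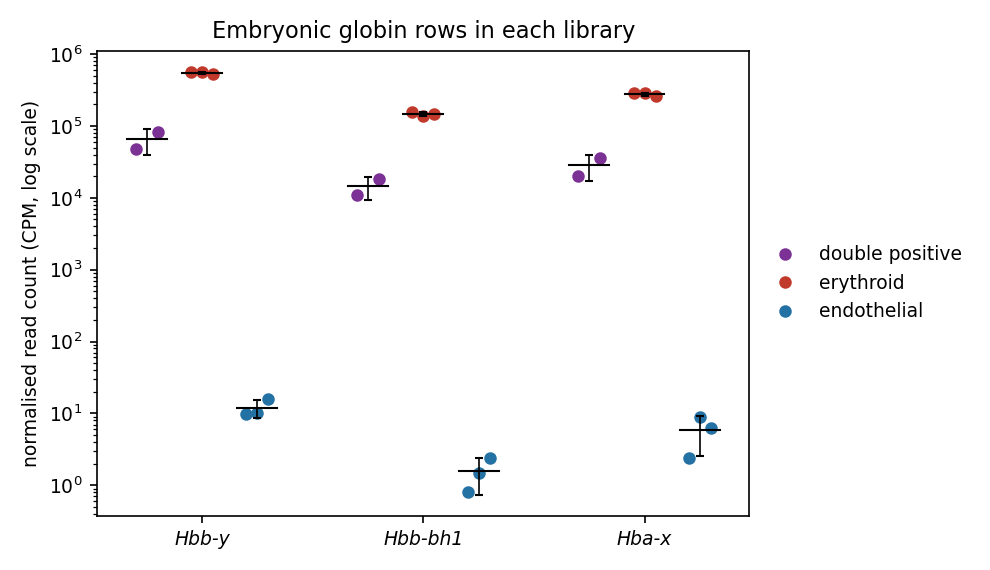
Normalised read count (CPM, log axis) of the 3 embryonic globin rows in each library, by population, with the mean (horizontal line) and SD (bar, cut off near 0). For each chain the double positive pools sit between the erythroid and the endothelial pools, and no populations overlap.

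The order of the chains was the same in every library. Per kilobase of annotated exon (633 bases for Hbb-y, 613 for Hbb-bh1 and 938 for Hba-x), Hbb-y was highest, Hba-x next and Hbb-bh1 lowest. The level per kilobase was 102640 ± 39452 CPM for Hbb-y, 30077 ± 12033 CPM for Hba-x and 23791 ± 8389 CPM for Hbb-bh1 in double positive pools (SD, n = 2). In erythroid pools it was 869059 ± 26065 CPM for Hbb-y, 295723 ± 15950 CPM for Hba-x and 241591 ± 15337 CPM for Hbb-bh1 (SD, n = 3). In endothelial pools it was 18.9 ± 5.31, 6.21 ± 3.45 and 2.55 ± 1.34 CPM for the same chains (SD, n = 3). The means of Hba-x and Hbb-bh1 differed by less than their SD in the double positive pools, but within each library Hba-x was the higher.

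The composition of the embryonic globin counts differed slightly between double positive and erythroid pools. Hbb-y made up 60.28% and 60.29% of the 3-chain counts in the double positive libraries, against 56.07% to 56.61% in the erythroid libraries. Hbb-bh1 made up 13.95% and 13.30% in the double positive libraries, compared with 14.07% to 15.83% in erythroid ones. Hba-x made up 25.78% and 26.41% in the double positive libraries, compared with 27.68% to 29.32% in erythroid ones. Each chain's share was thus separate between these populations, with Hbb-y above and Hbb-bh1 and Hba-x below, although the closest Hbb-bh1 values, 13.95% in double positive replicate 7 and 14.07% in erythroid replicate 5, lay near each other. The totals behind these shares were 410631 and 672467 counts in the double positive libraries, compared with 2884269 to 4302922 in erythroid ones.

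In the endothelial libraries the same shares rested on 99, 125 and 152 counts and spread far more. The Hbb-y share was 75.8% in replicate 1 (exact Clopper-Pearson 95% interval 66.1% to 83.8%), 49.6% in replicate 2 (40.5% to 58.7%) and 64.5% in replicate 3 (56.3% to 72.1%). The Hbb-bh1 share was 6.06% in replicate 1 (2.26% to 12.7%), 7.20% in replicate 2 (3.35% to 13.2%) and 9.87% in replicate 3 (5.63% to 15.8%), and over the 3 libraries 30 of 376 counts (7.98%, exact interval 5.45% to 11.2%). The Hba-x share was 18.2% in replicate 1 (11.1% to 27.2%), 43.2% in replicate 2 (34.4% to 52.4%) and 25.7% in replicate 3 (18.9% to 33.4%). The Hba-x interval of replicate 2 did not overlap that of replicate 1 or that of replicate 3. The Hbb-y intervals of replicates 1 and 2 did not overlap either. These intervals cover counting error only, because amplified reads without molecular identifiers are not independent molecules. For Hbb-bh1 the upper bound of the summed endothelial share lay below the share in each double positive and erythroid library, but that sum rests on 30 counts, and the interval of replicate 3 alone covered both double positive shares.

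**Figure D2:**
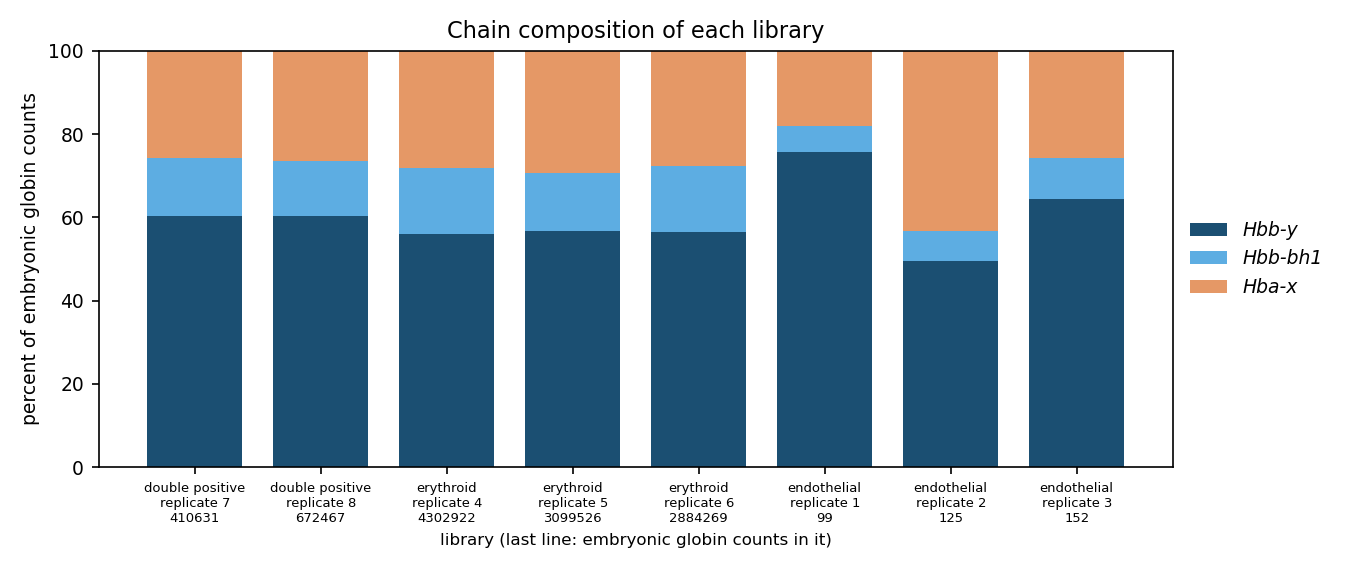
Percent of the embryonic globin counts of each library that came from Hbb-y, Hbb-bh1 and Hba-x, with the number of those counts under each bar. The double positive bars hold 60.28% and 60.29% Hbb-y and the erythroid bars 56.07% to 56.61%, while the endothelial bars rest on 99 to 152 counts and range from 49.6% to 75.8%.

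The alpha to beta balance was taken as Hba-x over the sum of Hbb-y and Hbb-bh1, each per kilobase of exon. It was 0.233 and 0.241 in the double positive libraries, 0.264, 0.278 and 0.257 in the erythroid libraries, and 0.150, 0.511 and 0.232 in the endothelial libraries. All double positive values were below all erythroid values, and the endothelial values spanned both. The mean was 0.237 ± 0.006 in double positive (SD, n = 2) and 0.266 ± 0.011 in erythroid pools (n = 3), a ratio of 0.890 between them. The exact permutation p of 0.1 is the smallest that 2 against 3 libraries allow, and it was 0.24 after Benjamini-Hochberg adjustment over the 12 ratio tests. Against endothelial pools (0.298 ± 0.190, SD, n = 3) both exact permutation p-values were 1.

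The level of this balance depended on the length assigned to Hba-x. The log2 difference between double positive and erythroid pools was -0.17 under every length choice. A gene has the same length in every library, so the Hba-x length cancels from that difference and could not change it. With coding lengths (441, 441 and 426 bases for Hbb-y, Hbb-bh1 and Hba-x) it was 0.366 ± 0.009 in double positive and 0.411 ± 0.017 in erythroid pools (SD, n = 2 and 3). With the first Hba-x exon cut at the RefSeq start, a length of 738 bases, it was 0.301 ± 0.007 in double positive and 0.338 ± 0.014 in erythroid pools. With no length scaling it was 0.353 ± 0.008 in double positive and 0.397 ± 0.016 in erythroid pools. Under every length choice the alpha-like counts were below the beta-like counts in all 8 libraries, the highest value being 0.787 in endothelial replicate 2 with coding lengths.

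Among the ratios between single chains, those that held Hbb-y separated the double positive from the erythroid pools, and the one without it did not. Hba-x over Hbb-y was 0.289 and 0.296 in the double positive libraries, and 0.340, 0.350 and 0.331 in the erythroid libraries (exact permutation p = 0.1, adjusted 0.24). Hbb-bh1 over Hbb-y was 0.239 and 0.228 in the double positive libraries, and 0.289, 0.257 and 0.289 in the erythroid libraries (exact permutation p = 0.2, adjusted 0.343). Neither of these ratios overlapped between the populations. Hba-x over Hbb-bh1, the ratio without Hbb-y, was 1.21 and 1.30 in the double positive libraries and 1.18, 1.36 and 1.14 in the erythroid libraries, and these overlapped (exact permutation p = 0.8, adjusted 1). None of these tests could pass 0.05 at this number of pools.

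In the endothelial libraries Hbb-bh1 over Hbb-y was 0.0826, 0.150 and 0.158, below every double positive and every erythroid library. The fold was 1.86 for double positive over endothelial and 2.22 for erythroid over endothelial pools (exact permutation p = 0.1 for each, adjusted 0.24). Hba-x over Hbb-bh1 was 1.96, 3.92 and 1.70 in the endothelial libraries, above all others, on 6 to 15 Hbb-bh1 counts per library. Hba-x over Hbb-y was 0.162, 0.588 and 0.269 there, and spanned the double positive and erythroid values.

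**Figure D3:**
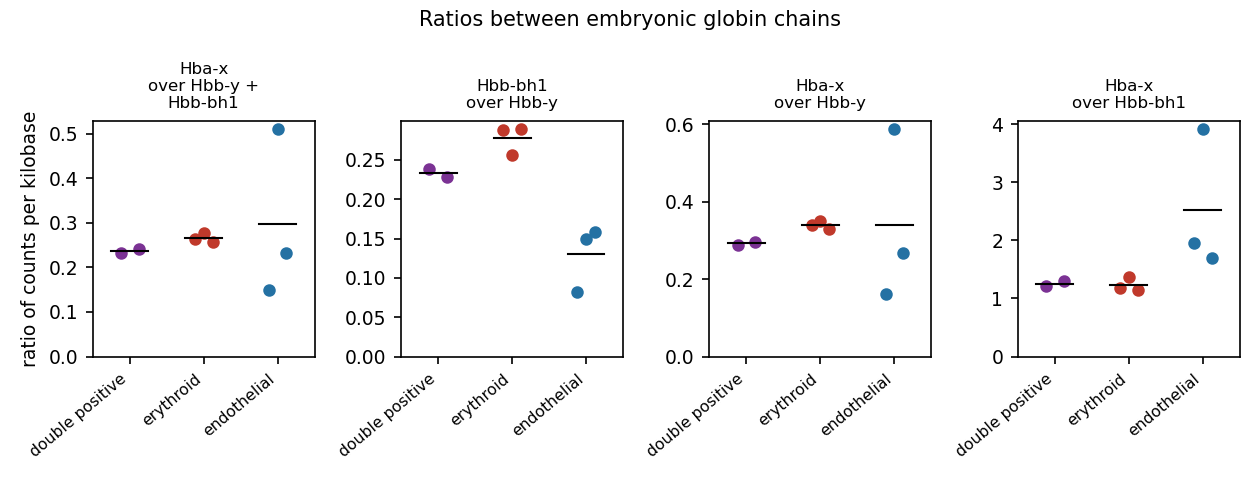
Ratios between chains per kilobase of exon in each library (points) with the population mean (line), each panel starting at 0. The ratios with Hbb-y in the denominator are lower in the double positive than in the erythroid pools without overlap, whereas Hba-x over Hbb-bh1 overlaps between them.

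The table held 9 other haemoglobin rows. The adult chain rows Hba-a1 and Hba-a2 (alpha-like) and Hbb-bs, Hbb-bt, Hbb-b1 and Hbb-b2 (beta-like) were at 0 in all 8 libraries, where 3 counts would be 3.9e-05% to 8.1e-05% of a library. GENCODE vM21 holds no gene named Hbb-b1 or Hbb-b2, so the zeros of those rows cannot be read as further silent genes. Adult copies are near-identical to each other: Hba-a1 and Hba-a2 differed at 1 of 429 coding positions, Hbb-bs and Hbb-bt at 1 of 444, and their first 60 coding bases were the same. Of their 50-base windows, Hba-a1 shared 67.5% and Hba-a2 shared 86.9% with the other alpha copy, and Hbb-bs shared 65.8% and Hbb-bt 58.3% with the other beta copy. How the counting treated reads that match several copies is not stated in the labels, and its part in these zeros was not tested. The alpha to beta balance above therefore covers the embryonic chains alone.

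Of the other 3 rows with counts, Hbq1b was the one separate between all populations. Hbq1b, an alpha-cluster theta chain, had 60 and 139 counts in the double positive libraries, 944, 829 and 612 in the erythroid libraries and 0 in each endothelial library. It was lower in double positive than in erythroid pools (log2 -3.52 ± 0.43, SE, edgeR adjusted p = 9.2e-04), at 8.75% of the erythroid mean. Its copy Hbq1a, which shares 36.8% of its windows with it, had 36 counts in all, 5 and 1 in the double positive libraries, 0, 24 and 6 in the erythroid libraries and 0 in the endothelial libraries, and was too low to be tested. Hbb-bh2, another beta-cluster row, had 0 and 3 counts in the double positive libraries, 12, 23 and 14 in the erythroid libraries and 0 in the endothelial libraries, and did not pass the edgeR test between double positive and erythroid pools (adjusted p = 0.107), though it passed with both limma fits.

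Globin genes are switched on by erythroid factors that bind their promoters and distant enhancers. Of 14 such activators, 10 fell and 1 rose in double positive relative to erythroid pools, with a median log2 difference of -2.89. Over all genes tested, 10.6% were called lower and 31.5% higher in that comparison. Klf1, the factor that reads CACCC words at beta-like promoters, was at 28.8 ± 4.51 CPM in double positive (SD, n = 2) and 763.5 ± 13.9 CPM in erythroid pools (n = 3), and at 0 in all endothelial libraries (log2 -4.73 ± 0.20 for double positive against erythroid, edgeR adjusted p = 1.1e-05). Gata1, the master GATA factor of red cells, was at 14.0 ± 1.19 CPM in double positive and 287.9 ± 44.2 CPM in erythroid pools, and at 0 in endothelial libraries (log2 -4.36 ± 0.26, edgeR adjusted p = 4.0e-05). The gene that was higher was Klf2, a Krüppel-like factor of endothelium and of primitive red cells, at 13.4 ± 1.91 CPM in double positive pools, 0 in all erythroid libraries and 54.0 ± 2.98 CPM in endothelial pools. Of the same 14 genes, 8 rose and 1 fell in erythroid relative to endothelial pools (4 fell when libraries were scaled by their totals alone). Over all genes, 14.4% were called higher and 26.6% lower there.

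Repressors shift globin expression between developmental stages. Of the 18 genes of that list 2 were not tested, Bcl11a and Myb, with means of at most 0.49 CPM in any population. Of the 16 tested, 2 fell in double positive relative to erythroid pools, where 10.6% of all genes were called lower, and the list's median log2 difference was 0.55, against 0.71 over all genes. Neither value sets the list apart from all genes. By library totals alone 1 fell and 6 rose, while 2 rose without erythroid replicate 4 and 3 without erythroid replicate 6. DNA methyltransferase Dnmt1 was at 31.7 ± 5.12 CPM in double positive, 105 ± 31.1 CPM in erythroid and 50.7 ± 4.87 CPM in endothelial pools (edgeR adjusted p = 0.0021 for double positive against erythroid). The lymphoid and erythroid zinc finger gene Ikzf1 was at 4.22 ± 1.06 CPM in double positive, 124 ± 47.3 CPM in erythroid and 7.42 ± 6.15 CPM in endothelial pools (edgeR adjusted p = 0.0011). Dnmt1 and Ikzf1 were also the 2 called higher in erythroid than in endothelial pools, where 14.4% of all genes were called higher. The deacetylase Hdac1 was the 1 called lower, against 26.6% of all genes (8 by library totals alone, 2 without erythroid replicate 4 or 6). The Dnmt1 difference between erythroid and endothelial pools was 1.05 on the log2 scale and changed sign, to -0.49, when libraries were scaled by their totals alone.

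RNA regulators of the embryonic and fetal stage went the other way. Of 6 such genes 5 were higher in double positive than in erythroid pools, where 31.5% of all genes were called higher. Of the same 6, 4 were lower in erythroid than in endothelial pools, where 26.6% of all genes were called lower. Igf2bp1, an RNA-binding protein of fetal tissues, was at 42.1 ± 1.30 CPM in double positive, 1.29 ± 1.67 CPM in erythroid and 44.0 ± 3.23 CPM in endothelial pools (edgeR adjusted p = 0.0011 for double positive against erythroid). Igf2bp3 of the same family was at 79.7 ± 22.8 CPM in double positive, 4.28 ± 3.75 CPM in erythroid and 83.1 ± 27.3 CPM in endothelial pools (edgeR adjusted p = 0.0040). Lin28a, which blocks let-7 maturation, was at 14.5 ± 1.44 CPM in double positive pools, at 0.05 ± 0.09 CPM in endothelial pools and at 0 throughout the erythroid ones.

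Unpaired chains and free heme are handled by a further set of genes. Of 6 measured chain-handling genes, 2 were lower in double positive than in erythroid pools (10.6% of all genes), and 3 were higher in erythroid than in endothelial pools (14.4% of all genes). Of these 3, Hspa8 passed narrowly (log2 0.38, edgeR adjusted p = 0.044). It was not called with globin rows left out of library sizes (edgeR adjusted p = 0.075). Its difference changed sign, to -1.17, when libraries were scaled by their totals alone. Eif2ak1, the kinase that slows globin translation when heme is short, was at 27.5 ± 2.24 CPM in double positive, 357.8 ± 56.8 CPM in erythroid and 28.4 ± 12.4 CPM in endothelial pools (edgeR adjusted p = 1.1e-04 for double positive against erythroid). The mitochondrial transporter Abcb10 was at 46.7 ± 5.46, 608 ± 69.1 and 4.04 ± 0.98 CPM in double positive, erythroid and endothelial pools (edgeR adjusted p = 1.1e-05). Of 6 tested scavenging genes, 4 rose and 2 fell in double positive relative to erythroid pools, against 31.5% and 10.6% of all genes (2 rose without double positive replicate 8, and 1 fell without double positive replicate 7 or 8 or without erythroid replicate 5 or 6). Hmox1, which breaks down heme, was at 92.7 ± 13.2 CPM in double positive, 0.11 ± 0.18 CPM in erythroid and 182 ± 59.8 CPM in endothelial pools. Hpx, which encodes the plasma heme carrier hemopexin, was at 42.2 ± 12.5 CPM in double positive pools and at 0 in all erythroid and endothelial libraries, beside the visceral endoderm markers given above.

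The globins were then set beside other erythroid transcripts by the level in double positive pools as a percent of the erythroid mean. It was 11.8% ± 4.5 for Hbb-y, 9.85% ± 3.5 for Hbb-bh1 and 10.2% ± 4.1 for Hba-x (SD of the 2 double positive libraries). Heme synthesis genes had a median of 9.91% over 11 genes with at least 50 CPM in erythroid pools, and 3 of the 11 lay above and 5 below all members. Of the 12 genes of that list, 11 were lower in double positive than in erythroid pools, where 10.6% of all genes were called lower. All 12 were higher in erythroid than in endothelial pools, where 14.4% of all genes were called higher. The mitochondrial iron importer Slc25a37 was at 8.69% of the erythroid mean. The extremes of the list, named after their values were seen, were Alas2, the rate-limiting enzyme of erythroid heme synthesis, at 4.82% and Cpox, coproporphyrinogen oxidase, at 22.0%.

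Erythroid surface and membrane genes had a median of 5.17% of the erythroid mean over the 17 genes with at least 50 CPM in erythroid pools, of which 14 lay below all 3 embryonic globins. The anion exchanger Slc4a1 was at 3.36%, its anchor partner Epb42 at 3.10% and the Rh blood group gene Rhd at 5.40%. The transferrin receptor Tfrc, named after its value was seen, was the 1 gene above the globins, at 26.9%. Of the 18 genes of the list, 17 fell and 1 rose in double positive relative to erythroid pools, against 10.6% and 31.5% of all genes. The exception was the water channel Aqp1, at 2.57 ± 0.40 CPM in double positive pools, 0 in all erythroid libraries and 31.5 ± 15.1 CPM in endothelial pools. The 6 activators with at least 50 CPM had a median of 6.32%, from 3.77% for Klf1 to 12.3% for Lmo2. Over all 2211 genes with that level in erythroid pools the median was 68.7%. The differences between these lists were not tested, and the level required in erythroid pools leaves out genes such as Aqp1.

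The double positive libraries also differed from each other in globin content. Replicate 8 over replicate 7 was 1.75 for Hbb-y, 1.66 for Hbb-bh1 and 1.79 for Hba-x in CPM. The median of this quotient was 1.26 for the heme synthesis genes (0.939 to 1.73), 1.28 for the surface genes (0.481 to 2.04), 1.27 for the activators (0.953 to 2.20) and 1.05 over 2281 genes with at least 50 CPM in both libraries. The summed endothelial and erythroid markers given above were also higher in replicate 8, so the shift was not one of globins alone. With 2 libraries no test of this difference is possible.

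**Figure D4:**
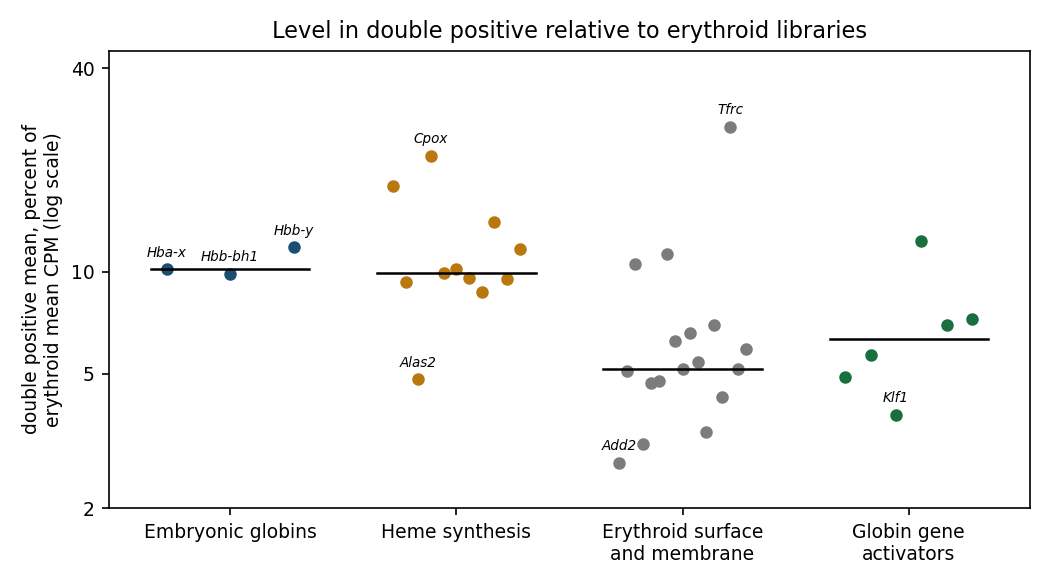
Mean CPM in double positive pools as a percent of the mean in erythroid pools (log axis), one point per gene with at least 50 CPM in erythroid pools, with the median of each list as a line. The embryonic globins lie at 9.85% to 11.8%, the heme synthesis median at 9.91% and the surface gene median at 5.17%.

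Profiles across libraries were compared by the root mean square difference between log2 CPM values, each gene centred on its own mean, over 3773 genes with at least 50 CPM in some population. Over all 8 libraries the 5 genes most like the mean of the embryonic globins included Hemgn (1.73 log2 units), Slc4a1 (2.10), Alas2 (2.30) and Rhd (2.30), against 0.24 to 0.27 for the members themselves. None of these was close on this scale. The log2 CPM values included a prior count of 2, which limits the range of genes at 0 in a population, as Hemgn was in endothelial pools. Each member is part of the mean it was set against, here and below, which makes its own value smaller. Over the 5 double positive and erythroid libraries the 5 nearest included Blvrb, biliverdin reductase B (0.05), the glycophorin gene Gypc (0.09) and the chaperone gene Anp32b (0.10), against 0.05 to 0.08 for the members. Blvrb was at 141 ± 48.9 CPM in double positive and 1417 ± 73.7 CPM in erythroid pools, and Gypc at 42.1 ± 12.8 CPM in double positive and 452.0 ± 11.8 CPM in erythroid pools (SD, n = 2 and 3).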

How the data were processed

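Pools of 24 or 25 sorted cells were profiled by Smart-seq2, per the labels' protocols: polyadenylated RNA, full-length copies, 14 cycles of PCR and no molecular identifiers. The deposited values were raw read counts per gene symbol, made by the authors with HTSeq on build mm10 after FastQC, per the submitters' processing notes. The labels name no aligner, annotation, strand setting or version. Populations came from the sample titles, which do not pair any pool with another. Totals were 3723128 to 7618444 counts, and Rn45s, a ribosomal RNA row, took 11.6% to 21.3% of each.

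Counts of all 8 libraries were fitted with edgeR 4.0.16 (R 4.3.3; minimum count 10, TMM factors, robust quasi-likelihood, 12136 genes, threshold 0.05, two-sided). The SE of an edgeR log2 difference was back-calculated, as its absolute value divided by the square root of the quasi-likelihood F statistic. It is not an SE estimated by the model. TMM factors were 0.563 to 0.580 in erythroid and 1.02 to 1.71 in the other libraries. Since globins fill erythroid libraries, their CPM values there are relative to an effective size below the total and are no share of a library. Chain ratios used exact permutation tests over libraries. Lengths came from GENCODE vM21. Alternatives were DESeq2 1.42.0, limma 3.58.1 (voom, and a trend fit chosen after seeing the data), other scalings, filters and lengths, and leaving out libraries. The script was tested on simulated data. Named genes were the members, every other haemoglobin row with counts or at 0, up to 4 genes per list with the smallest adjusted p for double positive against erythroid and for erythroid against endothelial pools, and the 5 most alike genes. Some genes that this rule takes in are not reported here. Other names are marked where they occur. Members and lists were chosen with earlier results of these data known.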

Additional observations from a re-analysis of the deposited data

How the results depend on the processing

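Over 129 refits of a member in a comparison, the direction held in 129 and the call in 120; the exceptions were the 9 by limma-voom, which called 0 of 3 members in each comparison (adjusted p 0.134 to 0.999); the cause was not tested. The limma trend fit, chosen after seeing the data, called 3 of 3 in each. Scaling by library totals alone gave double positive levels of 21.9% for Hbb-y, 18.3% for Hbb-bh1 and 18.9% for Hba-x of the erythroid level, and moved the median of all genes by 0.90 (double positive against erythroid), -0.63 (double positive against endothelial) and -1.54 (erythroid against endothelial). It changed the calls higher and lower to 5760 and 473 (against 3820 and 1283), 1118 and 1901 (1776 and 840) and 420 and 7270 (1745 and 3232) in those comparisons, and DESeq2 gave 1596 and 1366 for double positive against endothelial. The embryonic globin share of erythroid libraries was 63.4% without Rn45s; divided by effective size it was 97.6% in erythroid and 0.00193% in endothelial libraries, which is no share of the counts. Without 1 library, log2 differences of double positive against erythroid ranged from -3.51 to -2.73 (Hbb-y), -3.73 to -3.02 (Hbb-bh1) and -3.75 to -2.93 (Hba-x). Double positive percents of the erythroid level ranged from 8.60 to 15.0, 7.39 to 12.3 and 7.29 to 13.0 for the same genes. Where 1 double positive library was left, it was assumed to vary like the other groups. Of the values that answer a comparison, 110 stayed the same by rules set per kind of value, while 9 moved and 2 reversed. Calls had to hold for at least 2 of 3 members, and chain ratios had to keep only their direction. Library shares and double positive percents had to stay within 1 SD of the main value. Leaving out 1 library cannot move its population's share by 1 SD, nor 1 double positive library the percents, so those outcomes were fixed in advance. The others are the list counts, the single members' differences and the remaining chain ratios. Of these, 814 stayed the same and 9 lost the call (those by limma-voom), while 7 chain ratios reversed and 71 list counts moved by over 1.5 times. The endothelial ratios rest on 99 to 152 globin counts per library. Without 1 library at a time, the log2 ratio of Hba-x over Hbb-bh1 in double positive against erythroid pools ran from -0.020 to 0.11. For the alpha to beta balance it ran from -0.54 to 0.35 (double positive against endothelial) and from -0.37 to 0.51 (erythroid against endothelial), and for Hba-x over Hbb-y from -0.44 to 0.49 and from -0.22 to 0.71. These directions are therefore not held by every set of libraries; the cause was not tested. The other 7 ratio comparisons kept their direction under every alternative run. Gene lengths cancel from differences in ratios between single chains, so the length choices could not reverse those. No paired analysis was possible because the labels do not say which pools, if any, came from the same embryo.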
